A study of Mus musculus with 10 samples.

Results

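These results describe the liver of female C57BL/6 mice 24 h after a single dose of acetaminophen, set against the liver of control mice of the same time point. Of the 10 arrays of the series, the 2 whose labels give 24 h were used, and each compared the liver of 1 treated mouse with the liver of 1 control mouse. Treated mice had 350 mg/kg acetaminophen in phosphate-buffered saline by intraperitoneal injection, and control mice had the saline alone. All mice were 8 weeks old and had been fasted for 24 h before injection, so the control livers too were those of mice fasted before their injection. The other arrays paired treated and control livers at 3, 8, 48 and 72 h, with 2 arrays a time point. Total RNA of whole liver was hybridised to Agilent mouse gene expression arrays, in which treated RNA carried the red dye Cy5 and control RNA the green dye Cy3 on every array. The dyes were never swapped, so a dye effect at 24 h cannot be told apart from the treatment, whereas it cancels in a difference between time points. The arrays at 24 h are called replicate 1 and replicate 3 after the numbers of their treated mice, and different mice supplied each channel of each array. The 2 arrays lay on different slides and were scanned on different days, so each array's own ratio is also the value within its slide and scan day.

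Acetaminophen is cleared by hepatocytes, the main cells of the liver, mostly as conjugates with glucuronic acid and sulfate. Cytochrome P450 enzymes of hepatocytes around the central vein oxidise the remainder to a reactive quinone imine, which glutathione binds. After an overdose glutathione runs out, the quinone imine binds proteins, mitochondria are damaged and hepatocytes around the central veins die, while surviving hepatocytes express stress genes and later divide. The hepatocyte is also the site of urea synthesis, of most amino acid breakdown, of gluconeogenesis and of the synthesis of most plasma proteins.

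Every value below is a log2 ratio of treated over control signal, so that 1 is a 2-fold rise and -1 a fall to the matching extent, or a log2 signal intensity of a single liver. Intensities are compared between livers for the same probe and never between genes. A difference between the treated livers, or between the control livers, cannot be told apart from one of slide or scan day. On the array of replicate 1, 20097 probes were well above background in the treated channel and 25994 in the control channel. On that of replicate 3, 29698 were in the treated channel and 32981 in the control channel, and no spot was saturated on either array. Among 25 listed secreted hepatocyte proteins, 24 in treated livers and 25 in control livers were well above background on both arrays, so the defining genes of the labelled tissue were present, and of 14 pancreas genes tested 4 were in treated livers and 11 in control livers. A mean ratio is given with its standard error (SE, n = 2 arrays) from a model that shares the spread of all 10 arrays. The SE does not cover a dye effect, the choice of scaling or differences between probes of a gene.

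Of 24001 genes tested, 2611 (10.9%) differed between treated and control liver at an adjusted p under 0.05 (limma, Benjamini-Hochberg). Signal rose for 910 genes (3.79%) and fell for 1701 (7.09%). A rise or fall of at least 2-fold was found for 313 and 702 of them, and one of at least 4-fold for 61 and 146. Counts of rises and falls at 24 h in every list below stand against the shares over all genes. Bright genes were called most often, with 642 of the rises and 1391 of the falls in the brightest of 4 equal groups of genes. Of the 2611 genes, 2609 had the same sign on both arrays, and Agxt and Sult1a1 were measured on replicate 3 alone. The call rests on the mean of these arrays, so a shared sign is largely built into it. The ratios of the arrays correlated across genes with r = 0.757, which describes the genes and is no test, since genes are not independent replicates. At an unadjusted p under 0.05, 5131 genes passed. Single arrays carried unequal weight: without the array of replicate 3, 578 genes rose and 783 fell, and without that of replicate 1, 717 rose and 1480 fell.

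The split between rises and falls depended on how the channels were scaled. Loess correction sets the typical ratio to 0 at every brightness, and the median over all genes was -0.0020. With each array only centred on its median, the ratio fell with brightness, and the brightest of 4 equal groups of genes had a median of -0.62. Under that scaling 26 genes rose and 728 fell. Of the 910 rises, 196 then had a ratio below 0, none of them a rise of at least 2-fold, while no fall turned positive. Of 172 genes named in the text, 98 kept their side of the threshold under median centring and 74 lost their call without a change of sign. The falls described below are therefore larger under median centring, and for groups of modest rises the centred median is given beside the corrected one.

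**Figure D1:**
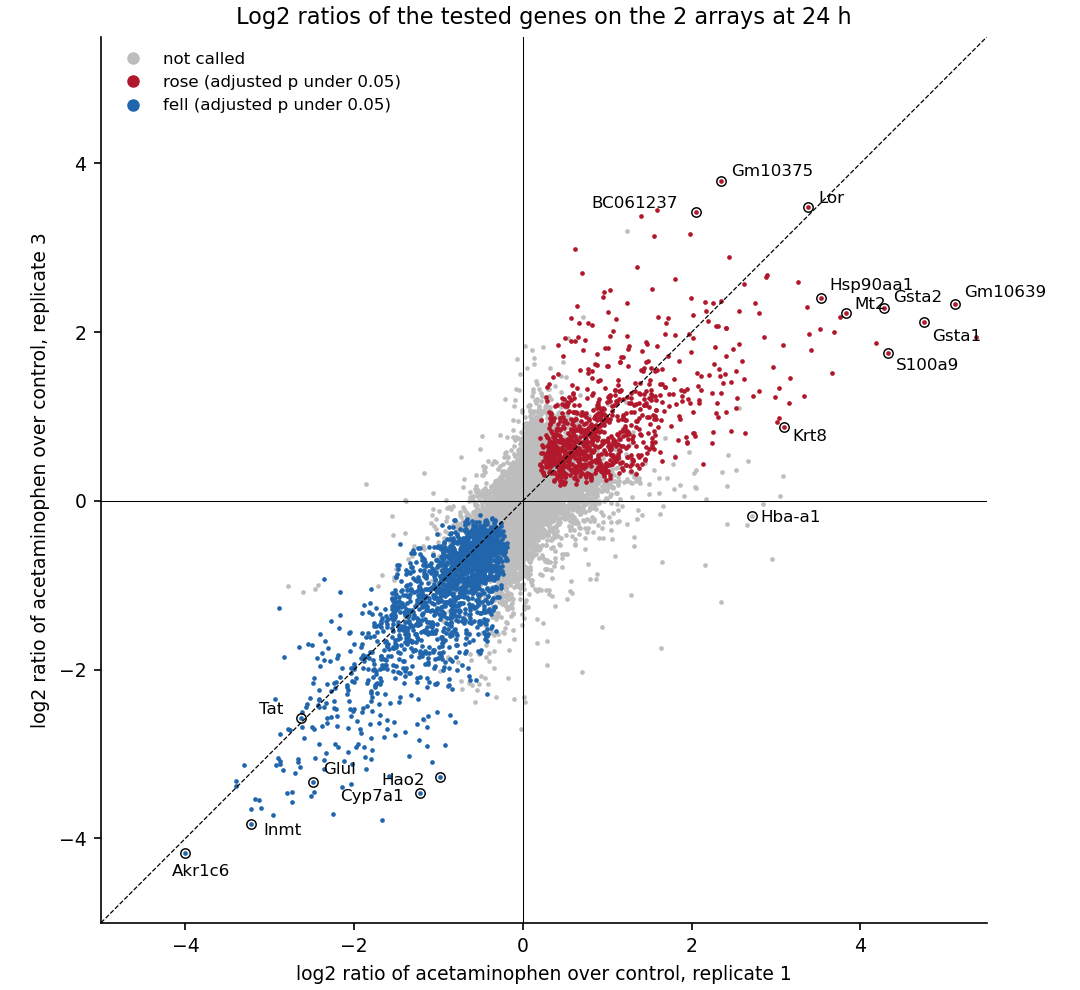
Log2 ratio of acetaminophen over control liver on the array of replicate 1 (x axis) and of replicate 3 (y axis) at 24 h for the tested genes measured on both, with genes that rose in red, genes that fell in blue and the rest in grey; the dashed line marks equal ratios. Akr1c6, Inmt and Tat lie near the line, whereas Gsta1, S100a9 and Krt8 lie below it and Hba-a1 has a ratio of 2.72 on replicate 1 and -0.18 on replicate 3.

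Glutathione transferases of the alpha class, which join glutathione to reactive compounds, were among the largest rises. Gsta1 had an intensity of 14.37 and 14.45 in treated livers, against 9.62 and 12.34 in control livers of replicates 1 and 3. The treated livers were alike, and the control livers differed by more than 2 units, so the ratio was 4.75 on replicate 1 and 2.12 on replicate 3 (3.43 ± 0.62, adjusted p = 0.01). Its adjusted p was 0.083 without replicate 1 and 0.077 under median centring. Gsta2 had 13.45 and 13.79 in treated livers, against 9.17 and 11.51 in control livers (3.28 ± 0.41, adjusted p = 0.0018), and the predicted gene Gm10639 of the same region of chromosome 9 had 15.13 and 14.86 in treated livers, against 10.002 and 12.52 in control livers (3.73 ± 0.57, adjusted p = 0.0047). The probes of these 3 genes are near copies of each other over the stretch below, so signal of each may include RNA of the others. The 30 bases they share are shown because they bear on whether the 3 rises are separate, with capitals at the positions that differ, counted from 1 at the 5′ end of the stretch.
Gsta1 (probe at chr9:78090411-78090470, + strand, mm9): ctggcctctaatGgtttgcaattataaaaA
Gsta2 (probe at chr9:78178856-78178915, - strand, mm9): ctggcctctaatTgtttgcaattataaaaT
Gm10639 (probe at chr9:78153243-78153302, + strand, mm9): ctggcctctaatGgtttgcaattataaaaT
Against Gsta1, the stretch of Gsta2 has G13T and A30T, with 28 of 30 bases identical, and that of Gm10639 has A30T alone, with 29 identical. Most other transferases were lower: of 22 on the list, 2 rose, Gsta1 and Gsta2, and 13 fell, with a median of -0.99. Gstm2 had 10.31 and 9.598 in treated livers, against 11.84 and 12.21 in control livers (-2.07 ± 0.34, adjusted p = 0.0065), and Gstz1, which also serves tyrosine breakdown, had 12.53 and 12.04, against 14.27 and 14.21 in control livers (-1.95 ± 0.18, adjusted p = 5.2e-04). Gsta3, the alpha class member with 2 probes that both fell, had a ratio of -2.005 ± 0.15 (adjusted p = 2.2e-04).

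Genes of the cornified envelope, the protein shell of skin keratinocytes, were also among the largest rises. Lor, which encodes loricrin, had intensities of 12.28 and 12.17 in treated livers, against 8.89 and 8.68 in control livers, and its ratio was nearly the same on both arrays (3.38 and 3.48; mean 3.43 ± 0.28, adjusted p = 3.4e-04). Sprr1a, a small proline-rich protein of that envelope, had 13.07 and 12.41 in treated livers, against 10.31 and 10.06 in control livers (2.55 ± 0.15, adjusted p = 9.9e-05). Lce3c, a late cornified envelope gene, had 11.52 and 10.903 in treated livers, against 8.64 and 8.25 in control livers (2.77 ± 0.197, adjusted p = 2.0e-04). Of 10 genes tested from a list of cornified envelope genes, Lor and Sprr1a were those called, and the list's median was 0.11. The predicted genes Gm10375 and BC061237 on chromosome 14 rose too, with 10.399 and 11.03 in treated livers, against 8.05 and 7.23 in control livers for Gm10375 (3.07 ± 0.29, adjusted p = 5.6e-04), and 10.03 and 10.53 in treated livers, against 7.98 and 7.11 in control livers for BC061237 (2.74 ± 0.28, adjusted p = 7.5e-04). Their probes are near copies of each other over the 30 bases below, in which the second has A6G and T17C against the first, so the 2 rises may be read from the same RNA.
Gm10375 (probe at chr14:44180555-44180614, - strand, mm9): agtaaAgaggaggctgTtatgtcaaatcca
BC061237 (probe at chr14:45125683-45125886, + strand, mm9): agtaaGgaggaggctgCtatgtcaaatcca

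Metallothioneins, small proteins that bind zinc and copper, behaved like Gsta1 in the single livers. Mt2 had 16.16 and 15.94 in treated livers, against 12.33 and 13.71 in control livers (3.03 ± 0.42, adjusted p = 0.0029), and Mt1 had 17.28 and 16.89 in treated livers, against 13.600 and 14.89 in control livers (2.84 ± 0.42, adjusted p = 0.004). Plin2, the main coat protein of hepatocyte lipid droplets, had 15.73 and 15.44 in treated livers, against 12.21 and 13.403 in control livers (2.78 ± 0.35, adjusted p = 0.0018). In each of these genes the control livers differed by more than the treated ones did, and the control liver of replicate 3, on another slide and scan day, was the higher.

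**Figure D2:**
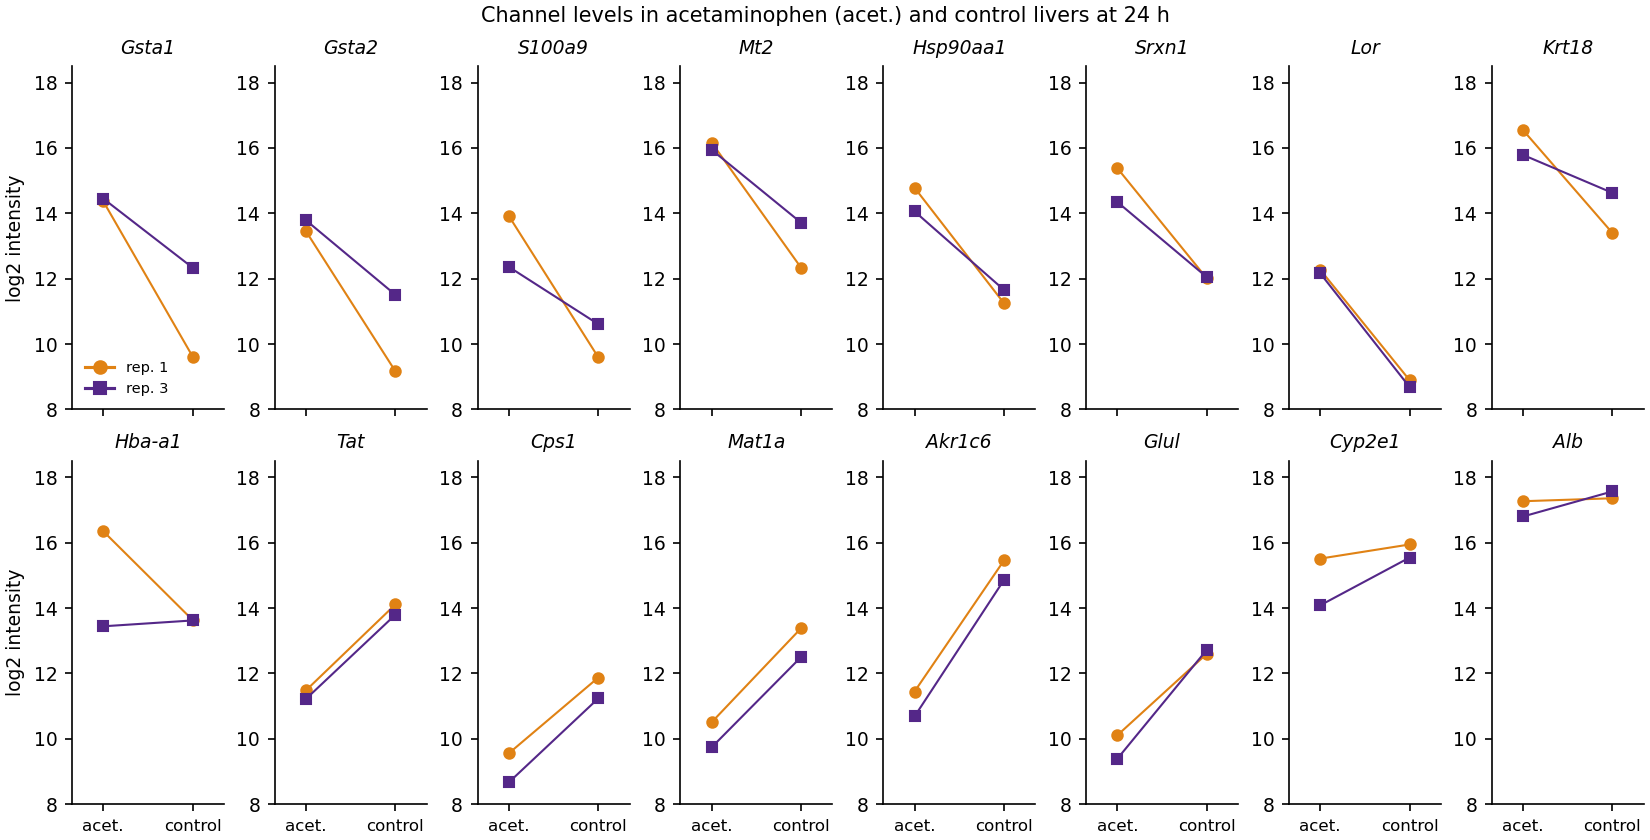
Log2 intensity of 16 genes in the acetaminophen liver (left) and the control liver (right) of replicate 1 (orange circles) and replicate 3 (purple squares) at 24 h; a line joins the livers of an array, and heights are comparable within a panel only. Gsta1, Gsta2 and Mt2 have treated livers close together and control livers apart, Lor, Tat and Akr1c6 have both lines nearly parallel, and Hba-a1 is high in the treated liver of replicate 1 alone.

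The largest falls were of enzymes and transporters of the hepatocyte. Akr1c6, an aldo-keto reductase that acts on steroids (probe at chromosome 13, mm9 bases 4456428 to 4456487), had 11.45 and 10.68 in treated livers, against 15.45 and 14.86 in control livers, a ratio of -4.09 ± 0.33 (adjusted p = 3.4e-04). Inmt, an N-methyltransferase of indolamines, had 11.39 and 10.43 in treated livers, against 14.61 and 14.26 in control livers (-3.53 ± 0.37, adjusted p = 8.4e-04). Slco1b2, an uptake transporter of bile acids and drugs, had 11.51 and 10.93 in treated livers, against 14.69 and 14.46 in control livers (-3.35 ± 0.28, adjusted p = 3.5e-04). In all 3 genes both treated livers were below both control livers. Rgn, also called regucalcin, had a ratio of -3.34 ± 0.31 (adjusted p = 5.3e-04), Sult2a8, a sulfotransferase of bile acids, -3.13 ± 0.29 (adjusted p = 5.2e-04), and Slc38a4, an amino acid transporter, -3.09 ± 0.21 (adjusted p = 1.6e-04). Pecr, a reductase of the peroxisome, had -3.02 ± 0.17 (adjusted p = 7.9e-05), with probes at -3.02 and -1.14. Of 23 further hepatocyte enzymes tested, 21 fell and none rose, with a median of -1.61, against -0.0020 over all genes. Among them Car3, a carbonic anhydrase, had a ratio of -2.14 on replicate 1 and -3.39 on replicate 3, and Uox, the urate oxidase, -2.201 and -2.67. In whole liver, fewer hepatocytes and less of an RNA in each hepatocyte cannot be told apart, and this holds for every list that follows.

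Enzymes that break down amino acids fell almost as a whole. Of 45 tested, 40 fell and none rose, against 7.09% of all genes that fell, with a median of -1.57 (-1.62 on replicate 1 and -1.65 on replicate 3). Tat, the aminotransferase that opens tyrosine breakdown, had 11.48 and 11.22 in treated livers, against 14.11 and 13.799 in control livers (-2.603 ± 0.37, adjusted p = 0.0035). Both treated livers lay below both control livers. Sds, which converts serine to pyruvate, had a ratio of -2.48 ± 0.14 (adjusted p = 9.8e-05), Prodh, which opens proline breakdown, -2.59 ± 0.26 (adjusted p = 7.1e-04), and Hibadh, of valine breakdown, -2.74 ± 0.12 (adjusted p = 5.4e-05). Dpyd, which degrades uracil and thymine and was listed with these enzymes, had -3.03 ± 0.14 (adjusted p = 5.4e-05). Tdo2, which opens tryptophan breakdown, fell less, with 9.66 and 9.73 in treated livers, against 11.06 and 10.97 in control livers (-1.32 ± 0.29, adjusted p = 0.025). The 5 genes of the list that were not called had ratios up to 0.29.

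Genes that dispose of ammonia were lower as well. Of 13 tested, 10 fell and none rose, with a median of -2.11. Cps1, which commits ammonia to the urea cycle, had 9.56 and 8.67 in treated livers, against 11.87 and 11.24 in control livers (-2.44 ± 0.22, adjusted p = 5.2e-04). Otc, which makes citrulline, had 9.72 and 8.94, against 12.39 and 12.002 in control livers (-2.87 ± 0.18, adjusted p = 1.3e-04), with its 2 probes at -2.87 and -1.82. Ass1 had a ratio of -1.61 on replicate 1 and -2.600 on replicate 3, and Arg1, which releases urea, -2.66 and -1.73. These 4 enzymes of the cycle work in hepatocytes around the portal vein. Glul, which fixes ammonia as glutamine in the last layer around the central vein, had 10.11 and 9.39 in treated livers, against 12.601 and 12.72 in control livers (-2.91 ± 0.39, adjusted p = 0.0027), and Gls2, the glutaminase of portal hepatocytes, had 10.41 and 9.38, against 13.52 and 13.02 in control livers (-3.37 ± 0.17, adjusted p = 6.5e-05). Falls were found for genes of both sides of the lobule, with 18 of 24 portal genes and 13 of 24 central genes tested called lower. Portal genes had a median of -1.59 and central genes of -0.96. Among the central genes Car2, a carbonic anhydrase, rose (1.16 ± 0.24, adjusted p = 0.017), with 0.77 on replicate 1 and 1.56 on replicate 3. Without replicate 3 the rise of Car2 was not called (adjusted p = 0.28), nor was it under median centring (adjusted p = 0.28).

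Methionine metabolism, which supplies methyl groups and the cysteine of glutathione, was also lower. Of 19 genes tested, 15 fell and 1 rose, with a median of -1.52. Mat1a, the hepatocyte enzyme that makes S-adenosylmethionine, had 10.51 and 9.74 in treated livers, against 13.38 and 12.503 in control livers (-2.82 ± 0.26, adjusted p = 5.2e-04). Cth, which releases cysteine from cystathionine, had 9.72 and 8.66 in treated livers, against 12.38 and 11.75 in control livers (-2.87 ± 0.15, adjusted p = 6.6e-05), and Cbs, the step before it, had a ratio of -1.52 ± 0.12 (adjusted p = 2.8e-04). Gamt, of creatine synthesis, had -2.14 ± 0.26 (adjusted p = 0.0015), and Gnmt, which uses S-adenosylmethionine to methylate glycine, -1.49 ± 0.196 (adjusted p = 0.0024). In glutathione synthesis itself the changes were mixed, with 4 rises and 5 falls among 19 genes tested and a median of 0.0051, which turned to -0.25 under median centring. Gclc, the catalytic subunit of the limiting enzyme, had 14.101 and 13.48 in treated livers, against 11.805 and 12.33 in control livers (1.73 ± 0.27, adjusted p = 0.0055), whereas Gclm, its modifier subunit, had 8.66 and 8.32 in treated livers, against 8.68 and 8.29 in control livers (adjusted p = 0.99). Gsr, which regenerates glutathione, rose (1.11 ± 0.12, adjusted p = 8.2e-04), and Gpx1, the main glutathione peroxidase of liver, fell (-1.805 ± 0.091, adjusted p = 6.5e-05), as did Hagh (-2.38 ± 0.11, adjusted p = 5.4e-05) and Glo1 (-1.47 ± 0.12, adjusted p = 3.0e-04), which detoxify methylglyoxal with glutathione.

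**Figure D3:**
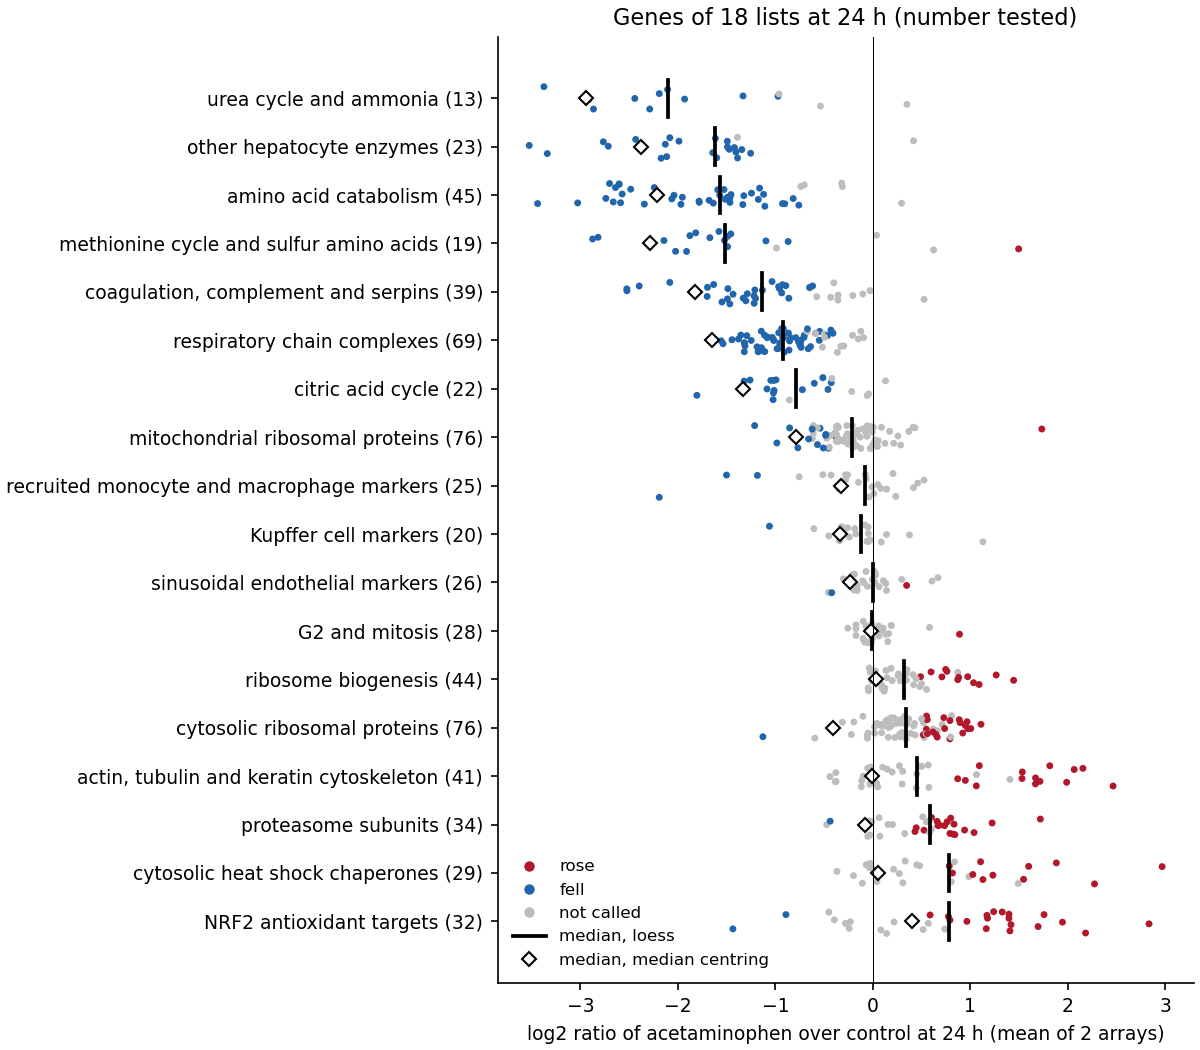
Log2 ratio of acetaminophen over control liver at 24 h for the genes of 18 lists (points: red rose, blue fell, grey not called), with the list's median after loess correction (black bar) and after median centring (white diamond); the number of genes tested stands beside each name. The medians of urea, amino acid and methionine genes lie below 0 under both scalings, whereas those of cytosolic ribosomal, proteasome and cytoskeleton genes are above 0 after loess and below 0 after centring.

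Nuclear genes of mitochondria fell in part. Of 22 genes of the citric acid cycle, 15 fell and none rose, with a median of -0.79. Idh2, the NADP-linked isocitrate dehydrogenase, had a ratio of -1.81 ± 0.22 (adjusted p = 0.0017), Suclg1, of succinyl-CoA ligase, -1.32 ± 0.17 (adjusted p = 0.0019), and Sdha, the flavoprotein of succinate dehydrogenase, -1.02 ± 0.16 (adjusted p = 0.0056). Cs, the citrate synthase at the entry of the cycle, had 12.25 and 11.52 in treated livers, against 12.21 and 11.68 in control livers, and was not called (adjusted p = 0.88). Of 69 subunits of the respiratory chain 57 fell and none rose, over a range from -1.56 to -0.096 around a median of -0.92. Ndufc2, of complex I, had -1.56 ± 0.12 (adjusted p = 2.4e-04), and Uqcrfs1, the Rieske protein of complex III, -1.32 ± 0.13 (adjusted p = 6.6e-04). Mitochondrial ribosomal proteins moved less: of 76 tested, 13 fell and 1 rose, with a median of -0.22. The gene that rose, Mrps18b, had 13.56 and 12.46 in treated livers, against 11.15 and 11.41 in control livers (1.73 ± 0.29, adjusted p = 0.0078), while its other probe gave 0.19. Among 38 genes of fatty acid oxidation 9 fell and 2 rose, against 7.09% of all genes that fell and 3.79% that rose. Acsl1, which activates fatty acids, fell (-2.003 ± 0.18, adjusted p = 4.8e-04), as did Echs1 (-1.800 ± 0.103, adjusted p = 9.0e-05) and Ppara, the receptor that controls this pathway (-1.05 ± 0.22, adjusted p = 0.019), with probes of Ppara from -1.05 to -0.21. Cpt1a, the carrier step into mitochondria, had 10.84 and 11.06 in treated livers, against 10.93 and 11.23 in control livers (adjusted p = 0.83). Acot1, a thioesterase of fatty acyl-CoA, rose (2.01 ± 0.35, adjusted p = 0.0082), with a treated liver of 12.59 on replicate 3 and 10.69 on replicate 1, against 9.17 and 10.08 in control livers.

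The enzymes that handle acetaminophen itself were mostly lower. Cyp2e1, the P450 best known for oxidising it, had 15.51 and 14.08 in treated livers, against 15.95 and 15.55 in control livers by its brightest probe (-0.95 ± 0.22, adjusted p = 0.042), and its other probe gave -1.63, so the size of the fall differed between probes. On replicate 1 the ratio of the brightest probe was -0.43, against -1.46 on replicate 3, and without replicate 3 the gene was not called (adjusted p = 0.32). Cyp1a2 had 9.96 and 8.76 in treated livers, against 11.802 and 11.19 in control livers (-2.14 ± 0.29, adjusted p = 0.0028), and Cyb5a, cytochrome b5, which passes electrons to P450 enzymes, had 13.41 and 12.98 in treated livers, against 15.29 and 14.88 in control livers (-1.89 ± 0.095, adjusted p = 6.5e-05). Por, the P450 reductase, had a ratio of 0.61 on replicate 1 and 0.034 on replicate 3 and was not called (adjusted p = 0.68). In glucuronidation and sulfation 17 of 22 genes tested fell and 1 rose, with a median of -1.39. Papss2, which makes the sulfate donor, fell (-2.39 ± 0.12, adjusted p = 6.5e-05), as did Ugt2a3 (-2.59 ± 0.104, adjusted p = 3.7e-05). Ugdh, which makes the glucuronic acid donor, was the gene that rose, with 12.61 and 12.25 in treated livers, against 10.53 and 11.05 in control livers (1.64 ± 0.22, adjusted p = 0.0024). Of 15 Cyp3a and Cyp4 genes tested 4 rose and 7 fell, with a median of -0.39, and 1 of the rises was below 0 under median centring. Some members of the Cyp4a family, omega-hydroxylases of fatty acids, went against most P450 genes: Cyp4a14 had 14.77 and 15.13 in treated livers, against 12.498 and 13.31 in control livers (2.05 ± 0.22, adjusted p = 9.9e-04), Cyp4a10 had a ratio of 1.28 ± 0.27 (adjusted p = 0.022) and Cyp4a31 1.42 ± 0.27 (adjusted p = 0.012). Sequences of these 3 genes are close, and the probes of Cyp4a10 ran from 0.29 to 1.33, so their rises may share RNA.

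Plasma proteins of the hepatocyte fell in number and differed in size. Of 39 coagulation and complement proteins and serpins, 29 fell and none rose, with a median of -1.13. Serpina6, the carrier of corticosteroids, had -2.52 ± 0.26 (adjusted p = 8.5e-04), and Serpind1, heparin cofactor II, -2.397 ± 0.19 (adjusted p = 3.4e-04). F2, prothrombin, had a ratio of 0.32 on replicate 1 and -0.73 on replicate 3, and C3 -0.026 and -0.69, and neither was called (adjusted p = 0.73 and 0.49). Alb, albumin, had 17.27 and 16.802 in treated livers, against 17.36 and 17.57 in control livers (adjusted p = 0.24), whereas Ttr, transthyretin, had 14.84 and 14.28, against 16.06 and 16.08 in control livers (-1.51 ± 0.19, adjusted p = 0.002). Among 21 apolipoproteins and lipid export genes 7 fell and 1 rose. Angptl4, an inhibitor of lipoprotein lipase, was the gene that rose, with 14.804 and 14.11 in treated livers, against 12.33 and 12.701 in control livers (1.94 ± 0.33, adjusted p = 0.0077).

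Acute phase genes, which inflammation raises in the mouse liver, split. Of 26 tested, 8 rose and 4 fell, and the median was 0.049 after loess and -0.64 after median centring. Saa2, a serum amyloid A protein, had 12.39 and 13.17 in treated livers, against 9.77 and 11.72 in control livers (2.03 ± 0.31, adjusted p = 0.005), and Saa1 a ratio of 1.52 ± 0.17 (adjusted p = 0.0012), and since these genes are near copies, each probe may read both. Cd14, a receptor for endotoxin, had 10.73 and 10.59 in treated livers, against 8.32 and 8.54 in control livers (2.23 ± 0.21, adjusted p = 6.0e-04). Hp, haptoglobin, had 0.46 on replicate 1 and -0.44 on replicate 3, and Orm2, an orosomucoid, 0.17 and -0.25, so that each had opposite signs on the arrays and was not called. Apcs, serum amyloid P, fell (-1.16 ± 0.083, adjusted p = 2.1e-04), as did Crp (-1.04 ± 0.19, adjusted p = 0.012) and Saa4 (-1.85 ± 0.34, adjusted p = 0.012). Among 26 iron and haem genes 4 rose and 10 fell. Fth1 and Ftl1, the ferritin chains that store iron, rose (2.18 ± 0.33, adjusted p = 0.0045 and 1.41 ± 0.34, adjusted p = 0.038), and Hmox1, which frees iron from haem, rose (1.76 ± 0.19, adjusted p = 9.0e-04, with a second probe at 0.16), while Hamp, hepcidin, had 0.52 on replicate 1 and -0.13 on replicate 3 (adjusted p = 0.6). Alad, of haem synthesis, fell (-1.301 ± 0.13, adjusted p = 7.4e-04). Alas1, the first enzyme of that pathway, fell by its brighter probe (-1.24 ± 0.26, adjusted p = 0.019), while its second probe was at -0.300. It was not called as the mean of both probes (-0.77, adjusted p = 0.067) or without replicate 3 (adjusted p = 0.28).

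Chaperones of the cytosol, which refold damaged proteins under the control of heat shock factor, were higher. Of 29 tested, 11 rose and none fell, against 3.79% of all genes that rose, with a median of 0.78 after loess and 0.051 after median centring. Hsp90aa1, the inducible HSP90, had 14.78 and 14.06 in treated livers, against 11.25 and 11.66 in control livers (2.97 ± 0.26, adjusted p = 4.6e-04). Hspa8, a constitutive HSP70, had 17.19 and 16.36, against 14.23 and 14.78 in control livers (2.27 ± 0.32, adjusted p = 0.0034), Hspb1, a small chaperone, 13.46 and 13.28, against 11.46 and 11.51 in control livers (1.88 ± 0.17, adjusted p = 4.7e-04), and Hsph1 10.97 and 11.08, against 9.56 and 9.29 in control livers (1.598 ± 0.16, adjusted p = 7.2e-04). In these 4 genes both treated livers were above both control livers. Hspa1a, an inducible HSP70, differed between arrays, with 0.41 on replicate 1 and 1.84 on replicate 3 (1.13 ± 0.27, adjusted p = 0.034). Zfand2a, a heat shock gene that acts with the proteasome and is not on the list, rose as well (2.78 ± 0.299, adjusted p = 9.6e-04).

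The heat shock element was looked for on both strands, as GAA, TTC and GAA in turn with any 2 bases between them, in RefSeq promoter windows (250 bases before to 50 after each start, GRCm38.p6). Of 32851 windows, 198 (0.603%) held it, and among 23 tested chaperone genes with a window 5 did, all named here for that match. Hsph1, Hspd1 and Hspe1 rose among those 5, Dnajb6 had a ratio of 1.49 and just missed the threshold (adjusted p = 0.0503), and Chordc1 had 0.27. Of the 18 without a match 5 rose, and these letters mark a match in a window and not a site in use. Hspd1 and Hspe1 are divergent neighbours that share the matched bases. The windows are shown for the genes with matches, with the fixed letters of the motif in capitals.
Hsph1 (chr5:149636287-149636308, - strand): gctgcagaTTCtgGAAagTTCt
Hspe1 and Hspd1 (chr1:55088053-55088082, + strand): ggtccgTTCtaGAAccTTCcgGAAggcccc
Dnajb6 (chr5:29735844-29735873, + strand): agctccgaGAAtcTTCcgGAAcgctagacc
Chordc1 (chr9:18292260-18292289, + strand): ccgGAAcgTTCggGAAaaTTCctGAAgcag
Chordc1, with 3 overlapping matches, held the most of these genes and was not called.

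Targets of NRF2, the factor that raises antioxidant genes when electrophiles bind its inhibitor, were mostly higher. Of 32 tested, 18 rose and 2 fell, with a median of 0.78, which stayed above 0 under median centring (0.41). Srxn1, sulfiredoxin, had 15.38 and 14.35 in treated livers, against 12.01 and 12.05 in control livers (2.83 ± 0.33, adjusted p = 0.0013), and Txnrd1, thioredoxin reductase, had ratios of 2.27 and 1.62 on replicates 1 and 3 (1.95 ± 0.14, adjusted p = 2.4e-04). Nqo1, the quinone reductase often used as a readout of NRF2, had 8.28 and 8.62 in treated livers, against 8.103 and 7.77 in control livers, and was not called (adjusted p = 0.27). The genes that fell were Me1, the malic enzyme (-0.89 ± 0.14, adjusted p = 0.0057), and Ugt1a6b, a glucuronosyltransferase (-1.44 ± 0.097, adjusted p = 1.6e-04). The antioxidant element, searched on both strands as TGACNNNGC, lay in 12.4% of all promoter windows and in those of 8 of 27 tested genes of the list with a window. Among these 8, Srxn1, Txnrd1, G6pdx, Pgd and Abcc4 rose, Me1 fell and Prdx1 and Abcc2 were not called, and of the 19 without a match 11 rose. The windows of the first 2 are shown on the + strand, where the match reads in reverse complement.
Srxn1 (chr2:152105542-152105571, + strand): gcagtgggcaGCtagGTCAgagtgagacac
Txnrd1 (chr10:82859104-82859133, + strand): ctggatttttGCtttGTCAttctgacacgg
Metallothionein promoters are known for metal response elements, searched on both strands as TGCGCNC, which 15.4% of all windows held. Of 9 tested genes of metal binding and transport with a window 4 held it, of which Mt1 and Mt2 rose and Slc30a1 and Slc30a10 were not called, and none of the 5 without a match rose.
Mt2 (chr8:94172479-94172508, + strand): cgcagacccttTGCGCtCagctcctttgct
Mt1 (chr8:94179098-94179127, + strand): cgcccgaaaagTGCGCtCggctctgccaag

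Genes of protein turnover and synthesis held modest rises, and the direction of the lists depended on the scaling. Of 34 proteasome subunits 18 rose and 1 fell, with a median of 0.58 after loess and -0.077 after median centring, where 9 of the 18 rises were below 0. Psmd4, a ubiquitin receptor of the regulatory particle, had 14.899 and 14.21 in treated livers, against 12.82 and 12.85 in control livers (1.72 ± 0.16, adjusted p = 5.6e-04), and Psma5 had a ratio of 1.22 ± 0.17 (adjusted p = 0.0029) and Psmd2 1.04 ± 0.090 (adjusted p = 4.2e-04). These 3 stayed above 0 under median centring, at 0.92, 0.53 and 0.31. Of 76 ribosomal proteins of the cytosol 20 rose and 1 fell, with a median of 0.34 (0.63 on replicate 1 and 0.15 on replicate 3). Under median centring the median became -0.41 and 12 of the 20 rises were below 0. Rps14 had 1.11 ± 0.14 (adjusted p = 0.002), and Rps27l, a p53-inducible relative of Rps27, was the gene that fell (-1.13 ± 0.18, adjusted p = 0.0058). Ribosome biogenesis held 12 rises and no fall among 44 genes, with Nop56 (1.44 ± 0.13, adjusted p = 4.6e-04) and Npm1 (1.27 ± 0.17, adjusted p = 0.0026, probes from 0.403 to 1.27) in front, and its median of 0.32 was 0.034 after centring. Among translation factors Eif6, which keeps large ribosomal subunits free of small ones, had 1.799 ± 0.16 (adjusted p = 4.9e-04), with probes from 0.25 to 1.799. In the endoplasmic reticulum 3 of 24 chaperone genes rose and 3 fell: Hspa5, known as BiP, had 15.97 and 15.17 in treated livers, against 13.77 and 13.68 in control livers (1.85 ± 0.25, adjusted p = 0.0025), while Hsp90b1 had 13.43 and 13.43, against 13.27 and 13.45 in control livers (adjusted p = 0.93).

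Cytoskeletal genes held rises that were larger on replicate 1 than on replicate 3. Of 41 genes of actin, tubulin and keratin 14 rose and none fell, with a median of 0.84 on replicate 1 and 0.15 on replicate 3, and of 0.45 over both, which median centring brought to -0.0080. Krt18, which with Krt8 forms the keratin filaments of hepatocytes, had 16.55 and 15.79 in treated livers, against 13.397 and 14.63 in control livers (2.16 ± 0.46, adjusted p = 0.021). Krt8 had a ratio of 3.095 on replicate 1 and 0.88 on replicate 3 (1.99 ± 0.48, adjusted p = 0.037), and without replicate 1 neither keratin was called (adjusted p = 0.17 for Krt18 and 0.28 for Krt8). Tubb6, a beta tubulin, had 12.92 and 12.34 in treated livers, against 9.84 and 10.495 in control livers (2.46 ± 0.25, adjusted p = 7.4e-04). Tubb4b had 14.85 and 14.21, against 12.44 and 12.49 in control livers (2.06 ± 0.17, adjusted p = 3.7e-04). The 4 genes named stayed above 0 under median centring. Actb, often used as a constant gene, had 16.02 and 15.998 in treated livers, against 14.71 and 15.18 in control livers, and was not called (adjusted p = 0.073). Tnfrsf12a, the receptor of the cytokine TWEAK, was the gene that rose among 17 biliary and progenitor genes tested, with 12.97 and 12.07 in treated livers, against 9.57 and 10.28 in control livers (2.597 ± 0.38, adjusted p = 0.0038), while Krt19 and Sox9, markers of bile duct cells, had ratios of -0.198 and 0.32 and were not called.

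Of 27 genes of the Bcl2 family and cell death 6 rose and 2 fell. Of 22 p53 targets 4 rose and 2 fell, against 3.79% of all genes that rose and 7.09% that fell. Cdkn1a, the p21 inhibitor of cyclin-dependent kinases, had 10.15 and 10.53 in treated livers, against 8.14 and 8.33 in control livers (2.11 ± 0.27, adjusted p = 0.002), by the brightest of its 3 probes, which ran from -0.074 to 2.11. Bcl2l1, which protects hepatocytes from apoptosis, had 13.51 and 12.700 in treated livers, against 11.14 and 11.31 in control livers (1.88 ± 0.21, adjusted p = 0.0012, second probe 0.39), and Mcl1, of the same family, had a ratio of 1.14 ± 0.18 (adjusted p = 0.0054). Bak1, which opens the mitochondrial membrane, rose (1.303 ± 0.15, adjusted p = 0.0013). Bbc3, which encodes PUMA, had a ratio of -0.44 on replicate 1 and -0.796 on replicate 3 (-0.62 ± 0.16, adjusted p = 0.047). It was not called without replicate 1 (adjusted p = 0.078) or without replicate 3 (adjusted p = 0.57). Among genes of cell division there were 2 rises in 22 genes of G1, 3 rises and 2 falls in 38 of S phase and 1 rise in 28 of G2 and mitosis, against 10.9% of all genes called in either direction. Well above background in treated livers were 16 of the G1, 33 of the S phase and 20 of the G2 and mitosis genes. Dim genes were seldom called, so the few calls in these lists do not show that cell division was unchanged. Ccnd1, cyclin D1, had 8.93 and 9.65 in treated livers, against 8.82 and 9.33 in control livers (adjusted p = 0.54), and Cdk1 had a ratio of 0.17 on replicate 1 and 0.997 on replicate 3 (adjusted p = 0.1). The growth factor receptor Egfr fell (-1.54 ± 0.16, adjusted p = 8.7e-04), as did its feedback inhibitor Errfi1 (-1.13 ± 0.15, adjusted p = 0.0024). Of 28 transcription factors and nuclear receptors of the hepatocyte tested, 7 fell, 2 rose and 19 were not called, with a median of -0.11. Cebpa fell (-1.31 ± 0.14, adjusted p = 9.5e-04), as did Hnf4a (-0.497 ± 0.11, adjusted p = 0.021) and Nr1i2, the pregnane X receptor (-1.01 ± 0.22, adjusted p = 0.022), while Creb3l3, a factor of hepatocytes anchored in the endoplasmic reticulum, rose (0.96 ± 0.13, adjusted p = 0.0032).

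The counts of the lists that follow stand against 3.79% of all genes that rose and 7.09% that fell. Among lipid droplet proteins 5 of 11 rose and 1 fell, with a median of 0.51 after loess and 0.052 after median centring. Hilpda, which inhibits the lipase of droplets, had 10.76 and 10.97 in treated livers, against 8.502 and 8.62 in control livers (2.300 ± 0.31, adjusted p = 0.0026), and Cidec, which fuses droplets, had 11.09 and 12.24 in treated livers, against 8.52 and 10.38 in control livers (2.22 ± 0.35, adjusted p = 0.0059, with a second probe at -0.0030). Cideb, a relative of Cidec that serves lipoprotein assembly in hepatocytes, fell (-1.46 ± 0.19, adjusted p = 0.0024). In the integrated stress response, which slows translation and raises amino acid supply, 7 of 24 genes rose and 1 fell. Gdf15, a hormone that stressed cells secrete, had 10.99 and 10.72 in treated livers, against 8.703 and 8.64 in control livers (2.18 ± 0.22, adjusted p = 8.0e-04), whereas Asns, the asparagine synthetase, had 7.503 and 7.92, against 7.41 and 7.69 in control livers (adjusted p = 0.92). Cd63, a membrane protein of lysosomes, rose (1.76 ± 0.21, adjusted p = 0.0014) and Lamp2, of the same membrane, fell (-1.73 ± 0.095, adjusted p = 7.4e-05), in a list of 34 autophagy and lysosome genes with 4 rises and 5 falls. In the circadian clock 5 of 22 genes fell and none rose. Dbp, an output factor of the clock, had 10.23 and 9.22 in treated livers, against 12.595 and 12.39 in control livers (-2.77 ± 0.39, adjusted p = 0.0034), and Noct, a phosphatase with daily rhythm, 9.85 and 8.66, against 11.45 and 11.36 in control livers (-2.15 ± 0.36, adjusted p = 0.0069), while the core genes Arntl and Per2 had ratios of 0.31 and -0.498 and were not called. Genes of the interferon response held 2 rises and 3 falls among 39, near the shares over all genes. Oasl1 and Rsad2, which act against viruses, rose (1.98 ± 0.302, adjusted p = 0.0048 for Oasl1 and 1.91 ± 0.36, adjusted p = 0.013 for Rsad2), whereas B2m, the light chain of class I antigen-presenting molecules, fell (-1.19 ± 0.23, adjusted p = 0.013), in a list of 20 antigen presentation genes with 5 falls and no rise.

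Markers of cells other than hepatocytes were read against 3.79% of all genes that rose and 7.09% that fell. Of 18 neutrophil markers tested, 14 were well above background in treated and 14 in control livers, 4 rose, and the list's summed linear intensity was 55417 and 40957 in treated livers, against 20466 and 29231 in control livers. S100a9, a calcium-binding protein that neutrophils hold in large amounts, had 13.92 and 12.36 in treated livers, against 9.596 and 10.61 in control livers (3.04 ± 0.498, adjusted p = 0.0066), and S100a8, its partner, 10.504 and 10.22, against 8.16 and 8.95 in control livers (1.81 ± 0.26, adjusted p = 0.0035). Lcn2, which hepatocytes also make, had a ratio of 1.41 ± 0.25 (adjusted p = 0.0091), and Mmp8, a collagenase of neutrophil granules, had 7.22 and 7.14 in treated livers, against 7.14 and 6.999 in control livers (adjusted p = 0.7). The list's sum includes Lcn2, so it is no measure of neutrophils alone. Ccl5, a chemokine of T cells and platelets, had 12.19 and 10.69 in treated livers, against 8.43 and 8.51 in control livers (2.97 ± 0.501, adjusted p = 0.0075). Cxcl1, which attracts neutrophils, rose (1.33 ± 0.25, adjusted p = 0.013), whereas Ccl2, which attracts monocytes, had 0.28 on replicate 1 and -0.704 on replicate 3 (adjusted p = 0.7). Of 25 markers of recruited monocytes and macrophages 21 were well above background in treated and 23 in control livers, none rose and 3 fell, with a summed intensity of 201923 and 171011 in treated livers, against 150238 and 170786 in control livers. The fallen genes, Arg1, Fn1 and Fabp5, are also expressed by hepatocytes, so the sum of that list is no measure of macrophages alone. Lgals3, galectin 3, turned between arrays, at 1.28 on replicate 1 and -1.12 on replicate 3, with its control livers at 8.39 and 11.02. Kupffer cell markers held 1 fall among 20. Lymphocyte markers held 1 rise among 25, and 12 of the 25 were well above background in treated and 20 in control livers. Sinusoidal endothelial markers held 1 rise and 1 fall among 26, and stellate cell and matrix genes 2 rises among 32. The part of these cells in the results above was not tested.

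A haemoglobin gene set the treated liver of replicate 1 apart. Hba-a1 had 16.35 and 13.44 in treated livers, against 13.63 and 13.62 in control livers, so that the ratio was 2.72 on replicate 1 and -0.18 on replicate 3 (adjusted p = 0.48). The list of 11 red cell and platelet markers had a summed intensity of 86603 and 13238 in treated livers, against 15274 and 15373 in control livers. Most of each sum was signal of Hba-a1 itself, so the sums repeat that gene. The list's median ratio was 0.015 on replicate 1 and -0.048 on replicate 3, and it held no called gene. S100a9 was likewise higher in the treated liver of replicate 1, at 13.92, than in that of replicate 3, at 12.36, and the part of blood in the result was not tested.

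The difference of 24 h from 8 h was tested to separate what was found at the later time from what was already there. Of 24001 genes, 1510 (6.29%) differed, 592 (2.47%) with a higher and 918 (3.82%) with a lower ratio at 24 h. Of the 918, 612 were also called falls at 24 h, and of the 592, 265 were called rises at 24 h. The count fell to 832 without the array of replicate 3 at 24 h and to 541 without that of replicate 2 at 8 h. Under median centring 2 genes differed between these times, so this comparison rests on the loess correction. In amino acid catabolism 30 of 45 genes were lower at 24 h than at 8 h, with list medians of -1.57 at 24 h and -0.301 at 8 h. The same was found for 7 of 13 genes of ammonia disposal (-2.11 at 24 h and -0.27 at 8 h), 12 of 19 of methionine metabolism (-1.52 at 24 h and -0.10 at 8 h) and 30 of 69 of the respiratory chain (-0.92 at 24 h and -0.22 at 8 h). Immediate early genes, which signalling switches on within minutes, had lower ratios at the later time, with 15 of 37 lower at 24 h and list medians of 0.22 at 24 h and 1.58 at 8 h. Fos had ratios of 0.068 and 0.54 at 24 h and 4.899 and 3.88 at 8 h, Egr1 1.699 and 2.11 at 24 h and 6.34 and 5.55 at 8 h, and Ifrd1 1.396 and 1.56 at 24 h and 5.46 and 5.02 at 8 h, so that Fos was no longer called at 24 h (adjusted p = 0.81) while the other two still were. Chac1, which degrades glutathione and is a target of the integrated stress response, had -0.086 and -0.39 at 24 h and 4.71 and 4.19 at 8 h. Rgs16, a regulator of G protein signalling, had -0.75 and -0.74 at 24 h and 4.06 and 3.62 at 8 h, and Slc25a47, a mitochondrial carrier of hepatocytes, had -1.38 and -1.299 at 24 h and 3.08 and 2.999 at 8 h, a called fall at 24 h and a called rise at 8 h.

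Genes with a higher ratio at 24 h than at 8 h included several named above. Lce3c had 2.88 and 2.66 at 24 h and 0.18 and 0.075 at 8 h, Ccl5 3.76 and 2.18 at 24 h and -0.44 and 0.19 at 8 h, and Gm10375 and BC061237, with the rises given above at 24 h, had ratios between -0.033 and 0.15 at 8 h. Tardbp, which encodes the RNA-binding protein TDP-43, had 1.79 and 1.44 at 24 h and -1.41 and -1.72 at 8 h by its brightest probe, whereas its lowest probe gave -0.104 at 24 h. Proteasome genes were among the higher ones, with 10 of 34 above their ratio at 8 h and 1 below it, as were cytosolic chaperones, with 7 of 29 above and 4 below. Over all genes 2.47% were above and 3.82% below.

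**Figure D4:**
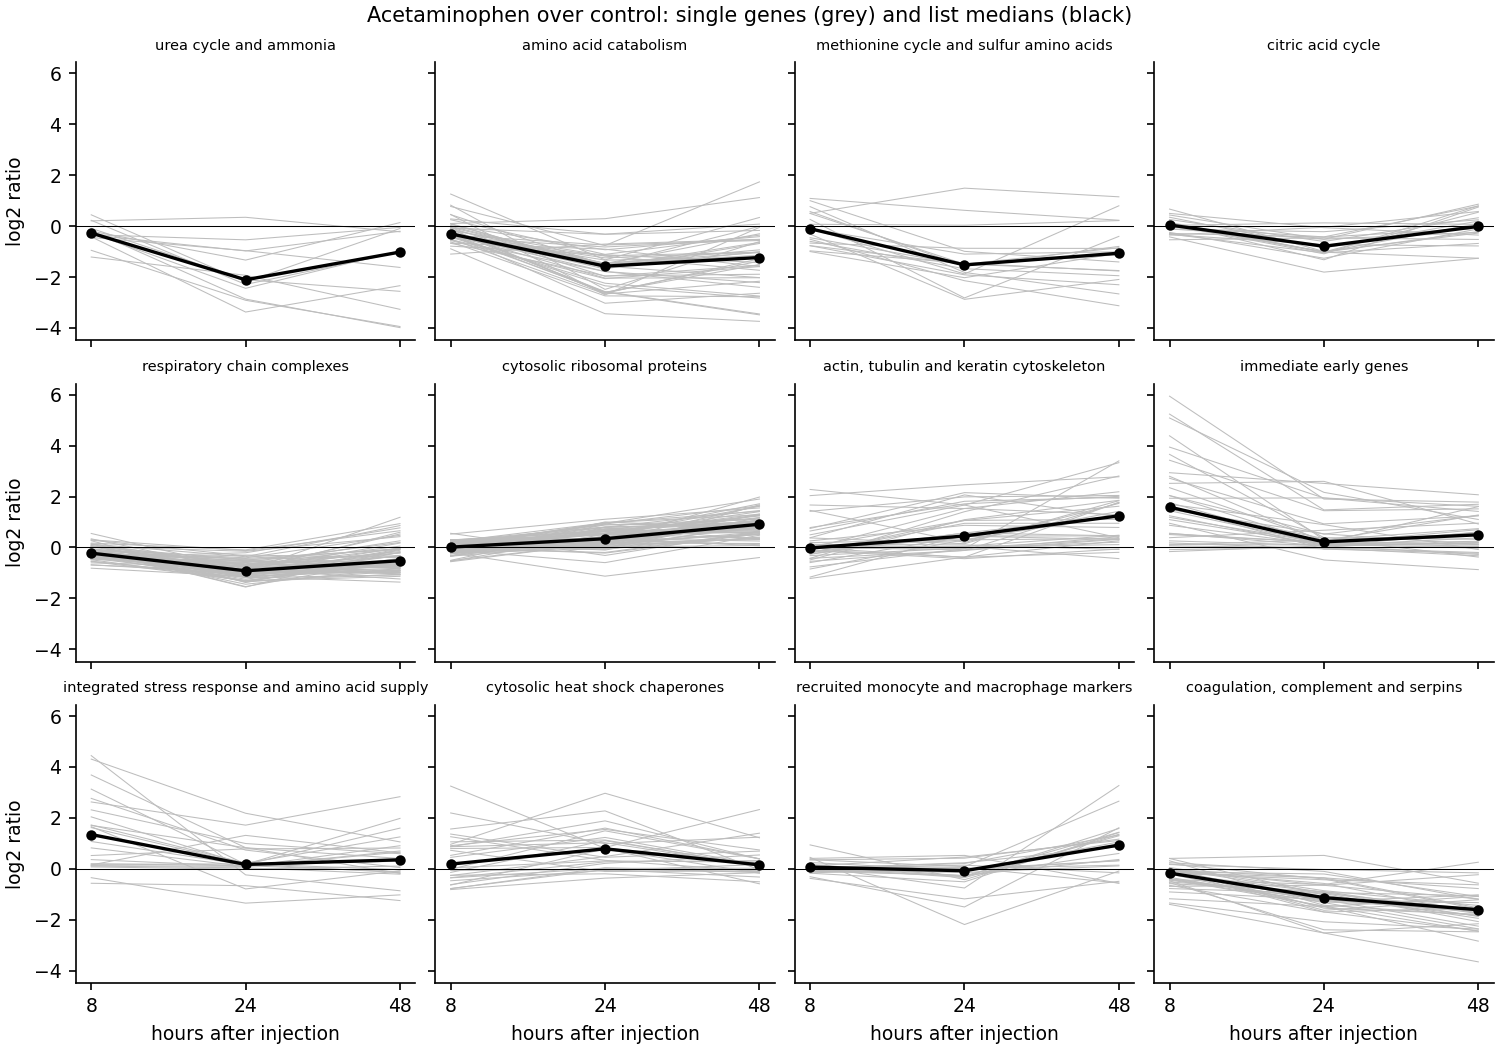
Log2 ratio of acetaminophen over control liver at 8, 24 and 48 h for the genes of 12 lists (grey lines) with the list median (black points and line). Medians of the urea, amino acid, methionine, citric acid cycle and respiratory chain lists are lowest at 24 h, while those of cytosolic ribosomal, cytoskeletal and macrophage genes are highest at 48 h.

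Between 24 h and 48 h, 2510 genes (10.5%) differed, 637 (2.65%) with a higher and 1873 (7.8%) with a lower ratio at 24 h. Of the 1873, 1404 were not called at 24 h and 395 were called falls. Under median centring 2 genes were higher and 525 lower at 24 h. The count was 946 without replicate 3 at 24 h, 1526 without replicate 1 at 24 h and 935 without replicate 3 at 48 h. Genes with a higher ratio at 24 h included the metallothioneins, with Mt2 at 3.83 and 2.23 at 24 h and 1.08 and -0.48 at 48 h and Mt1 at 3.68 and 1.997 at 24 h and 0.77 and -0.41 at 48 h, and Saa2, at 2.62 and 1.45 at 24 h and -1.09 and -1.24 at 48 h. Cyp2a4, a P450 of female liver and a near copy of Cyp2a5, had 1.65 and 1.39 at 24 h and -1.41 and -1.21 at 48 h, and Neat1, the RNA that builds nuclear paraspeckles, 1.88 and 1.31 at 24 h and -0.81 and -1.14 at 48 h. Sult2a7, a sulfotransferase, had -0.11 and -0.71 at 24 h and -2.95 and -3.78 at 48 h, and was not called at 24 h (adjusted p = 0.76). The genes furthest below their ratio at 48 h, apart from Fabp5l2, were not called at 24 h. Chil3, a secreted protein of macrophages, had 0.17 and -1.68 at 24 h and 3.51 and 3.03 at 48 h, Afp, the alpha-fetoprotein of fetal liver, 0.33 and -0.82 at 24 h and 3.39 and 3.93 at 48 h, and Apoa4 0.58 and -0.17 at 24 h and 3.48 and 3.96 at 48 h. Uts2, the peptide urotensin 2, had 0.46 and -0.62 at 24 h and 2.95 and 3.97 at 48 h, and Ifi27l2b, named for its likeness to interferon-induced genes, 0.34 and -0.56 at 24 h and 3.08 and 3.35 at 48 h. Fabp5l2, a pseudogene copy of the fatty acid binding protein gene Fabp5, had -1.53 and -2.01 at 24 h and 1.69 and 1.73 at 48 h, and Fabp5 itself -1.04 and -1.96 at 24 h and 1.53 and 1.69 at 48 h, so the 2 probes may read the same RNA.

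Members of several lists had a lower ratio at 24 h than at 48 h, as did 7.8% of all genes. Most members of each list were not called different. Of 76 cytosolic ribosomal proteins 18 had a lower ratio at 24 h (median 0.34) than at 48 h (0.91), and of 76 mitochondrial ribosomal proteins 23 did (-0.22 at 24 h and 0.28 at 48 h). In the respiratory chain 25 of 69 were lower at 24 h, with medians of -0.92 at 24 h and -0.52 at 48 h, and in the citric acid cycle 6 of 22, with -0.79 at 24 h and -0.0083 at 48 h. Of 25 macrophage markers 9 were lower at 24 h, with medians of -0.078 at 24 h and 0.93 at 48 h. Among P450 genes of the Cyp2 family the order turned, with 11 of 26 higher at 24 h than at 48 h and 1 lower, and medians of -0.84 at 24 h and -1.34 at 48 h.

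**Figure D5:**
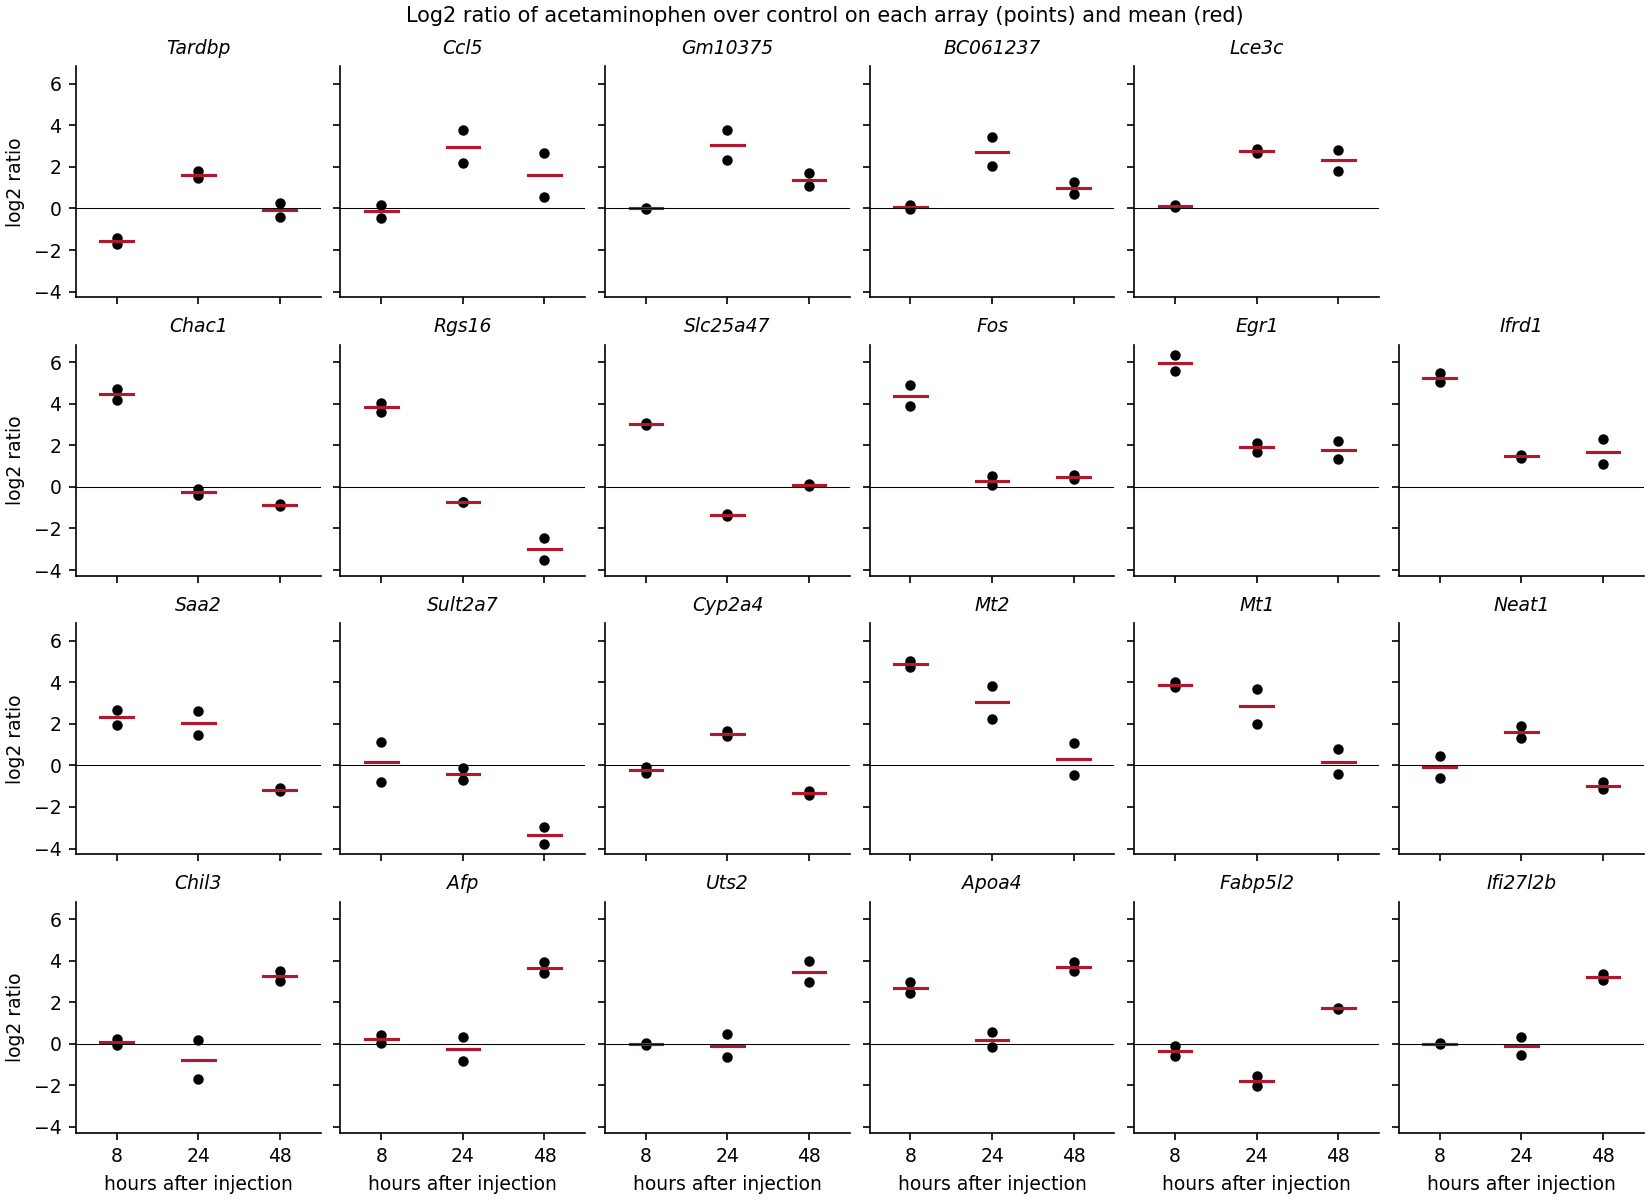
Log2 ratio of acetaminophen over control liver on each array (points) and their mean (red bar) at 8, 24 and 48 h for 23 genes with the largest differences of 24 h from 8 h (top 2 rows) or from 48 h (bottom 2 rows). Chac1, Fos, Egr1 and Ifrd1 are highest at 8 h, Gm10375 and BC061237 at 24 h, and Chil3, Afp, Uts2 and Ifi27l2b at 48 h.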

How the data were processed

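Spot intensities were deposited by the authors as scanner output, per the file headers from Agilent Feature Extraction 10.7.3.1 with protocol GE2_107_Sep09, and probe coordinates are on mm9, with exon and UTR positions not used here. The log10 ratio per the file headers is red over green after the software's correction, and the deposited value table holds a score of unstated scale, which equalled 1.44 times that ratio (r = 1, median 0 in each column). Both served as alternatives, turned to log2. The log2 ratios in the text were computed from the deposited intensity columns in limma 3.58.1 (R 4.3.3): normexp background correction (offset 50), then loess within each array. The 1377 control spots and 2718 outlier spots had weight 0 in loess and were left out. Of 39429 probes, 29611 were kept, namely those that the scanner software marked well above background, in the same dye, on both arrays of any time point. A gene was read from its brightest kept probe (4631 genes had several), named through RefSeq accessions (26581 probes), symbols (2597) or older symbols (492), or by the file's name (9759). Linear models with empirical Bayes moderation were fitted over all 10 arrays (5 residual degrees of freedom), with Benjamini-Hochberg adjustment of p over 24001 genes and a threshold of 0.05. Livers' intensities are log2 values after loess and Aquantile scaling.

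The members and gene lists were chosen with earlier results of these data known. Named genes were the 15 largest rises and falls at 24 h with the same sign on both arrays, preset genes of each list with its 3 largest calls each way (all calls where there were 3 or fewer), and the 6 largest differences each way from 8 h and from 48 h. Some genes that this rule names are not reported here. Genes named for a promoter match are said to be so. Mouse numbers were not used to pair samples. The deviation of the array of scan day 1 from that of scan day 2 was compared across genes between times. At 24 h it correlated with that at 3, 8, 48 and 72 h by -0.037, -0.073, 0.29 and 0.057. Replicate number went with scan day, so these values cannot tell a pairing of mice from an effect of scan day.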

Additional observations from a re-analysis of the deposited data

Results flagged for a closer look

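The difference between time points, an interaction of treatment with time in the limma fit over 10 arrays, was past the threshold for 1510 genes between 24 h and 8 h and for 2510 genes between 24 h and 48 h (Benjamini-Hochberg). Values are 24 h minus the other time on the log2 scale with SE, and the treated and control mice of each time point were different animals.

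Above their ratio at 8 h were Tardbp (3.18 ± 0.24, adjusted p = 9.8e-04), Ccl5 (3.09 ± 0.71, adjusted p = 0.044), Gm10375 (3.06 ± 0.41, adjusted p = 0.0057), BC061237 (2.68 ± 0.39, adjusted p = 0.008) and Lce3c (2.64 ± 0.28, adjusted p = 0.0025). The ratio at 24 h minus that at 8 h was negative for Chac1 (-4.69 ± 0.41, adjusted p = 0.0013), Rgs16 (-4.59 ± 0.36, adjusted p = 0.0012), Slc25a47 (-4.38 ± 0.19, adjusted p = 4.6e-04), Fos (-4.08 ± 0.59, adjusted p = 0.0077), Egr1 (-4.04 ± 0.37, adjusted p = 0.0014) and Ifrd1 (-3.76 ± 0.41, adjusted p = 0.0027). In each of these 11 genes both arrays at 24 h lay on the same side of both arrays at 8 h. The genes were picked for the size of that difference on these same arrays, so this adds no support. Tardbp was called a rise at 24 h and a fall at 8 h.

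Above their ratio at 48 h were Saa2 (3.198 ± 0.44, adjusted p = 0.0069), Sult2a7 (2.96 ± 0.66, adjusted p = 0.031), Cyp2a4 (2.83 ± 0.16, adjusted p = 7.3e-04), Mt2 (2.72 ± 0.59, adjusted p = 0.027), Mt1 (2.66 ± 0.59, adjusted p = 0.03) and Neat1 (2.57 ± 0.36, adjusted p = 0.0073). The ratio at 24 h minus that at 48 h was negative for Chil3 (-4.02 ± 0.496, adjusted p = 0.0053), Afp (-3.91 ± 0.35, adjusted p = 0.0028), Uts2 (-3.54 ± 0.39, adjusted p = 0.004), Apoa4 (-3.51 ± 0.65, adjusted p = 0.016), Fabp5l2 (-3.48 ± 0.45, adjusted p = 0.0059) and Ifi27l2b (-3.33 ± 0.305, adjusted p = 0.0028). The 2 arrays at 24 h were on the same side of both arrays at 48 h for all 12 genes, which were likewise picked for the size of the difference.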

How the results depend on the processing

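At 24 h, 2611 genes were called. Median centring in place of loess called 754 (26 rises and 728 falls, so 3.45% of calls were rises, against 34.9% after loess), no background correction 4871, the ratio of the scanner software and that of the authors' deposited table each 4218, and the arrays at 24 h alone 719. Between 24 h and 8 h, 1510 genes differed, against 2 under median centring and 2887 without background correction. Between 24 h and 48 h, 2510 differed, against 527 under median centring, 1551 with a normexp offset of 0 and 1283 with either of those ratios. Aquantile scaling leaves ratios as they are, and the filters on dim probes, the mean of all probes, an intensity trend and slide as a random block kept all 3 counts within 1.5 times. Leaving out 1 array at a time gave 1361 to 2730 genes at 24 h, 541 to 1681 between 24 h and 8 h and 935 to 3332 between 24 h and 48 h. Scan day was also fitted as a block, with replicate 1 (replicate 2 at 8 h) on day 1 and replicate 3 on day 2. With it, 2694 genes were called at 24 h, 1633 between 24 h and 8 h and 2477 between 24 h and 48 h. Of 172 genes named, 21 lost their call at 24 h without replicate 1 of that time (Angptl4, Arg1, Bbc3, Ccl5, Cidec, Crp, Cxcl1, Cyp4a10, Cyp4a31, Ftl1, Gsta1, Ifrd1, Krt18, Krt8, Neat1, Ppara, Rps27l, Rsad2, Saa4, Sdha and Tdo2) and 23 without replicate 3 (Acot1, Alas1, B2m, Bbc3, Car2, Car3, Crp, Cxcl1, Cyp2e1, Dbp, Egr1, Fabp5, Fabp5l2, Gstm2, Hnf4a, Hspa1a, Ifrd1, Me1, Noct, Nr1i2, Ppara, Saa4 and Tdo2). Lgals3 reversed to a called fall of -1.12 without replicate 1 and was a called rise of 1.28 without replicate 3. A lone array at 24 h was assumed to vary like the other groups, and the causes of these shifts were not tested. The treated channel of replicate 1 had the fewest probes above background of the 4 channels at 24 h, and dim genes were seldom called: 9 of the rises and 1 of the falls lay in the dimmest of 4 equal groups of genes.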

Other observations

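Lor, Sprr1a and Lce3c lie close together on chromosome 3, in a cluster of genes expressed in skin, and after their values were seen every tested gene named Lor, Sprr or Lce on that chromosome was looked up. Of 25 such genes, with probes from base 91884206 to base 92821888 (mm9), 11 rose at 24 h and none fell, against 3.79% and 7.09% of all genes. The rises were of Lor, 2 of 9 small proline-rich genes and 8 of 15 late cornified envelope genes, and ranged from 1.26 to 3.43 on the log2 scale, or from 1.01 to 2.82 under median centring. Lce1d had ratios of 2.44 on replicate 1 and 2.89 on replicate 3 (2.67 ± 0.22, adjusted p = 3.4e-04 in limma), Lce3b had 2.34 and 2.37 (2.36 ± 0.21, adjusted p = 4.7e-04), and Sprr2i had 1.59 and 3.44 (2.52 ± 0.41, adjusted p = 0.0067). The median over the 11 genes was 2.36 at 24 h, against 0.099 at 8 h and 0.96 at 48 h, with Lor and Sprr1a the genes that exceeded 1 at 8 h. Among neighbouring members that were not called, Sprr2g had 0.51 and 1.47 and Lce1h 0.13 and 1.62, whereas Lce1k and Lce1m averaged 0.012 and -0.026. Late cornified envelope genes are similar in sequence, so probes of different genes may read the same RNA. The genes were picked for their rises, so these counts are a description, and their cause was not tested.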
